A study of Mus musculus with 4 samples.

Results

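The 68 genes described here carry SR, hnRNP or RBM names and were measured by RNA-seq in mouse brain. Below they are called splicing factors, although some RBM genes encode proteins with other tasks. They are the protein-coding genes whose symbol is Srsf with a number, Hnrnp with letters or digits, or Rbm with a number. The rule used names only and no measured value, and it found the same 68 genes in both deposited tables. They are 11 Srsf, 20 Hnrnp and 37 Rbm genes of 19500 genes listed in both tables. The Wt1_flfl samples were brains at embryonic day 13 labelled WT; Wt1fl/fl, so the controls carried the floxed alleles. The Wt1_CKO samples were brains of the same stage labelled Wt1CKO, a conditional knockout, and all were on a C57BL/6 background. The labels name neither the Cre line nor the part of the brain taken, nor whether a sample was 1 embryo or a pool. Each genotype had 2 samples, numbered 1 and 2, and each deposited table holds the 2 libraries of one number. The p-values therefore measure only the spread between these samples, which may be technical.

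SR proteins bind short exonic sequences of a pre-mRNA and, through a tail rich in arginine and serine, recruit the spliceosome to the nearby splice sites. The hnRNP proteins coat nascent RNA and often oppose inclusion of an exon. The RBM genes form no single family: they share an RNA recognition motif and a name, and include spliceosome subunits, splicing regulators and proteins with other tasks. Many of these genes limit their own level through exons that expose the transcript to nonsense-mediated decay. In developing brain, the balance of splicing factors changes as progenitors become neurons. Wt1 is a transcription factor with zinc fingers, and its isoform with the residues KTS between the last zinc fingers is known to bind RNA and to associate with splicing factors. The study, by its title, asks how Wt1 acts on neural progenitors, and the comparison below asks whether the levels of these splicing factors differed between the genotypes.

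The libraries held 16219310 to 17704698 counts each. Ribosomal RNA was 0.458% of the counts in Wt1_flfl replicate 1 and 0.0184% to 0.0451% in the other 3. Xist, the X inactivation RNA of females, had 4 counts in Wt1_CKO replicate 1 and 13086 to 16472 in the other libraries. No check of the genotypes was made on the targeted transcript, which was not analysed here. All 8 progenitor markers and all 8 neuron markers had enough counts to be tested, so the markers of the labelled tissue were present.

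Several of these genes have processed pseudogenes, copies of their mRNA inserted elsewhere in the genome, and the counts of a gene and its copies can be exchanged. The sequences below are shown because they set what can be read from the counts of Hnrnpa1, Hnrnpa3 and Hnrnpk. Each pair gives 90 bases of the coding sequence of the gene and the aligned bases of the copy, from GENCODE M21 on GRCm38. The stretch is the first one without gaps that held the most differences, so other stretches differ no more. Capitals mark the bases that differ between gene and copy.
Hnrnpa1, coding bases 1 to 90: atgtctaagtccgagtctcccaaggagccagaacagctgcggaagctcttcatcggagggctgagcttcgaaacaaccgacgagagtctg
Gm10052, copy of Hnrnpa1: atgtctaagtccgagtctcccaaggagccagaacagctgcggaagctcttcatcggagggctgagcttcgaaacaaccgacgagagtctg
Hnrnpa3, coding bases 1 to 90: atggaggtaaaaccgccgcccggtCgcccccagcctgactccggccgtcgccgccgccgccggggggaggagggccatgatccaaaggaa
Gm11847, copy of Hnrnpa3: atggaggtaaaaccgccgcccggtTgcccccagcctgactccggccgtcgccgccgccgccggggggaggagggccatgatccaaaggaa
Hnrnpk, coding bases 790 to 879: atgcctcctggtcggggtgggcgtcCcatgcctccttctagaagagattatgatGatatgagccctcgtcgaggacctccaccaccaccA
Gm7964, copy of Hnrnpk: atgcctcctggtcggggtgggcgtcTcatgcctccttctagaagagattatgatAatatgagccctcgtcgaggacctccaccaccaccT
Gm10052 (chromosome 9, 123689233 to 123690192) matched the Hnrnpa1 coding sequence with 0 mismatches over 960 bases. Gm5641, another copy of Hnrnpa3 (chromosome 3, 54481438 to 54482925), matched a coding transcript of that gene with 0 mismatches over 1074 bases. With gaps left out, Gm11847 differed from Hnrnpa3 at 1 of 1119 aligned bases, and Gm7964 from Hnrnpk at 10 of 1377. With gaps counted, Gm11847, which is 1119 bases long, was 98.07% identical to an Hnrnpa3 transcript over 1140 aligned bases. Reads across a gap thus also differ between that gene and its copy. A short read from a stretch with no difference has no base that tells gene from copy.

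Levels of these genes were compared as CPM per kb, which divides CPM (counts scaled to a library of 1000000 with TMM factors) by the merged exon length of the gene. By merged exon length the highest was Hnrnpa1, a repressor of exon inclusion that also acts in mRNA export, with 570 ± 48.8 CPM per kb (SD over the 4 libraries). Its relative Hnrnpa2b1 had 323 ± 16.9 CPM per kb and Hnrnpa0, an intronless relative that binds AU-rich elements, had 255 ± 34.2. The lowest Hnrnp genes per length were Hnrnpll, a regulator known from T cells, with 14.2 ± 1.12 CPM per kb, Hnrnpr with 16.1 ± 1.15 and Hnrnpul1 with 36.2 ± 2.04. Among Srsf genes the order opened with Srsf1 at 122 ± 3.92 CPM per kb, Srsf5 at 114 ± 9.57 and Srsf6 at 112 ± 3.53. The range of Srsf5 over the libraries overlapped those of Srsf1 and Srsf6, while every library of Srsf1 lay above every library of Srsf6. It closed with Srsf11 at 35.3 ± 1.36, Srsf4 at 12.3 ± 1.46 and Srsf12 at 4.36 ± 0.760 CPM per kb. Among Rbm genes Rbm39, a U2AF-like splicing coactivator, led with 62.9 ± 5.76 CPM per kb. Rbm17, a spliceosome component that acts in 3′ splice site choice, had 59.3 ± 1.77 and the cold-induced gene Rbm3 had 58.8 ± 3.62 CPM per kb. At the other end, Rbm42, Rbm44 and Rbm47 did not pass the filter on low counts and were not tested. Rbm42 had 1, 1 and 1 counts in Wt1_flfl replicates 1 and 2 and Wt1_CKO replicate 1, and 2 counts in Wt1_CKO replicate 2. It shares 75.4% of its exon bases with Gm21982 on the same strand, so its level is uncertain. Rbm44 held 3 to 6 counts and Rbm47 held 3 to 10 counts per library. Merged exon length grows with the number of annotated isoforms, so the order depends on the length used. By the median length of coding transcripts Hnrnpa2b1 (1295 CPM per kb) and Hnrnpk (1294) were above Hnrnpa1 (1035), and Hnrnpa0 was the 10th of 20 Hnrnp genes. By that length Srsf5, Srsf6 and Srsf3 were above Srsf1, and Hnrnpr and Hnrnpul1 were no longer among the 3 lowest. Srsf11 also left the 3 lowest, and of the 3 highest Rbm genes Rbm39 alone kept its place. The median length has a limit of its own. For Hnrnpk it was 952 bases, shorter than its coding sequence of 1395 bases, so it can overstate a level.

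**Figure D1:**
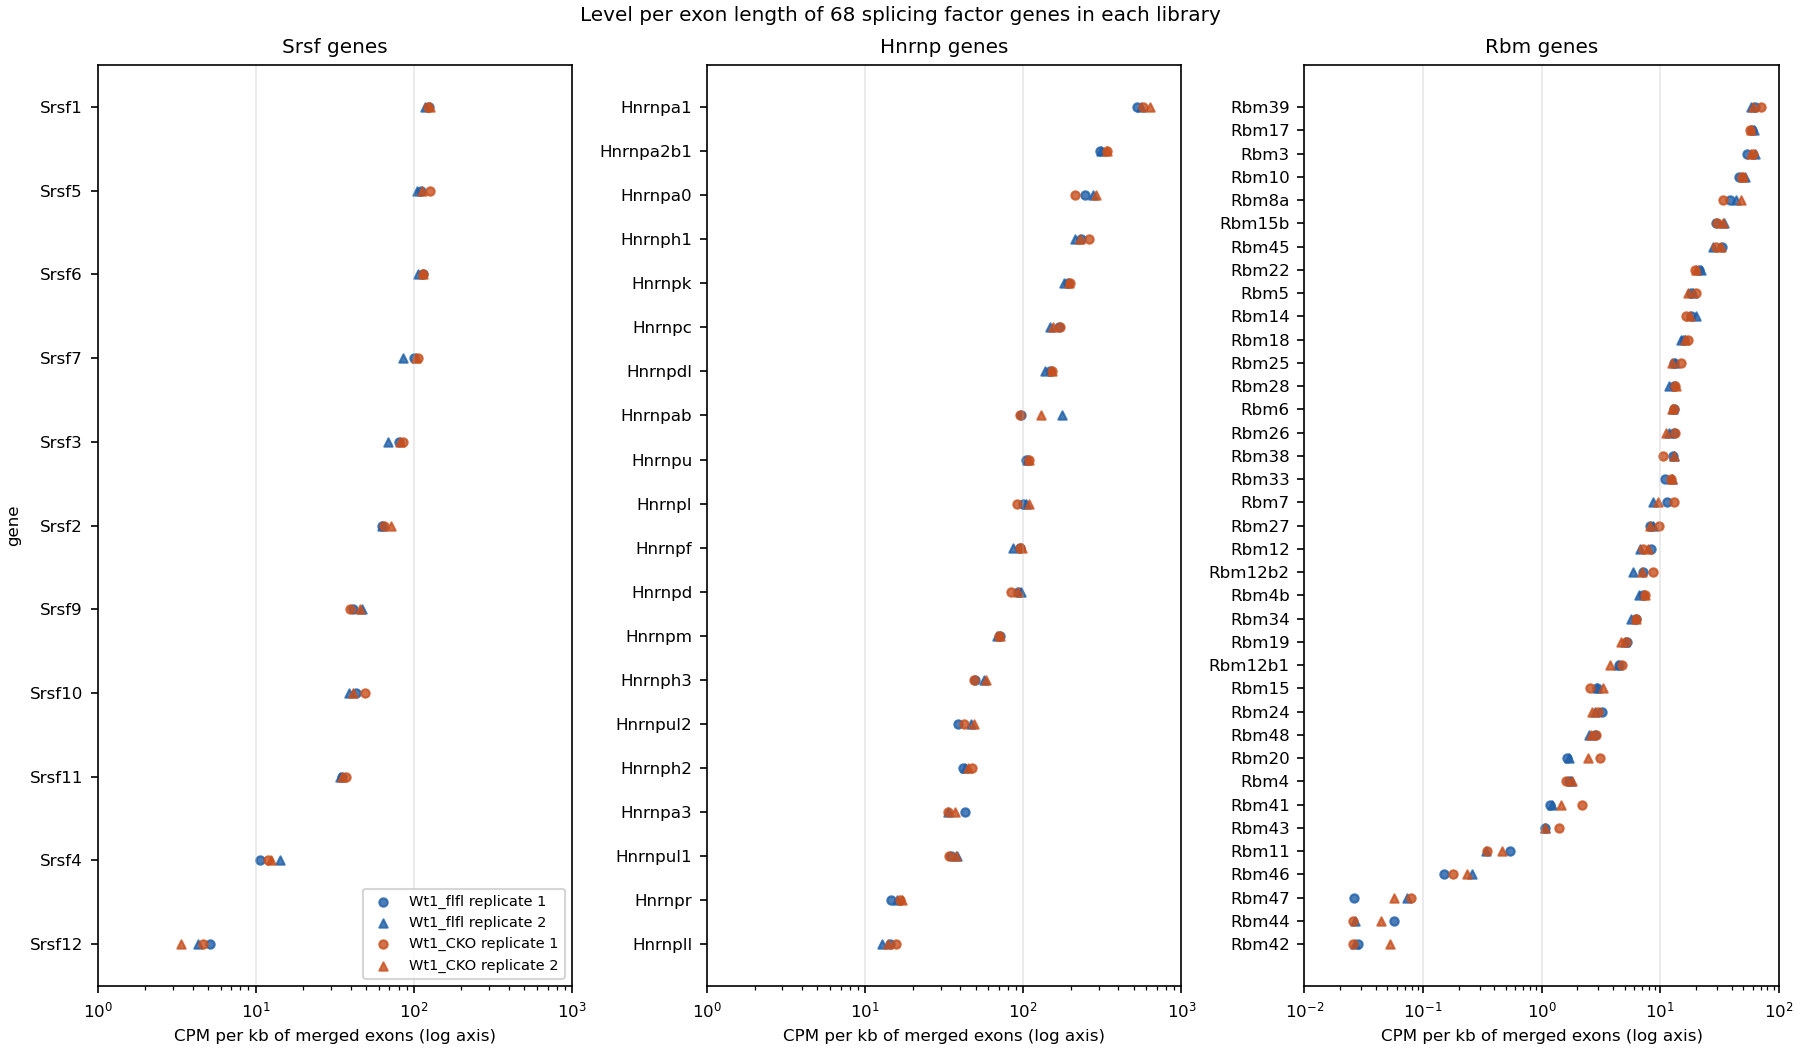
Level of each of the 68 genes in the 4 libraries, as CPM per kb of merged exons on a log axis, in 1 panel per family; circles are replicate 1, triangles replicate 2, blue Wt1_flfl and orange Wt1_CKO. The 4 points of most genes lie on top of each other, while Hnrnpab, Rbm20 and Rbm41 spread. So do the genes of few counts, Rbm11, Rbm44, Rbm46, Rbm47 and Rbm42, which sits at the bottom with 1 or 2 counts.

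No gene of the 3 families was called between the genotypes by edgeR's quasi-likelihood test. With 2 samples per genotype that test called 1 of all 15933 genes tested, so a count of 0 here is no result about these families. Of 68 genes, 65 passed the filter and were tested, and 0 had a Benjamini-Hochberg adjusted p under 0.05, where 0.00628% of all 15933 genes tested did. DESeq2 and limma-voom also called 0 of the 65. An unadjusted p under 0.05 was found for 1 of the 65, Rbm20, against 1.56% of all genes. The 65 log2 fold changes of Wt1_CKO against Wt1_flfl ran from -0.27 to 0.73 with a median of 0.04, and the median over all genes tested was 0.01. In edgeR's test every adjusted p of these 65 genes was 1. The test's 95% interval of the log2 fold change lay within 1 in either direction, a factor of 2 on the linear scale, for 61 of the 65 genes, and within 0.5 for 52. The other 4 were Rbm11, Rbm20, Rbm41 and Rbm46. For these 61, a change of a doubling or more lay outside the interval.

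Small differences without overlap of the groups lay more often upwards. Both Wt1_CKO libraries lay above both Wt1_flfl libraries for 16 of the 65 genes (24.6%), against 13.4% of all genes tested. Both lay below for 4 genes (6.15%), against 13.5% of all genes. The 4 were Hnrnpd, Rbm14, Rbm17 and Rbm22. By listed library totals with no TMM factor the counts were 24 above and 3 below, where 15.7% of all genes lay above and 11.8% below. The direction was shared by both tables for 39 genes, 28 positive (43.1%, against 27.0% of all genes) and 11 negative (16.9%, against 25.9%). These counts have no test. In bulk tissue a change in the number of cells of a type and a change in RNA per cell cannot be told apart.

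Together the 68 genes made up 2.01% and 2.02% of the counts in Wt1_flfl replicates 1 and 2, and 2.12% and 2.15% in Wt1_CKO replicates 1 and 2. Of counts outside rRNA the shares were 2.02% and 2.02% against 2.12% and 2.15%, so the higher rRNA of Wt1_flfl replicate 1 left the order as it was. The groups did not overlap, but with 2 samples against 2 the smallest two-sided p of an exact permutation test is 0.333. In TMM-scaled CPM the sum was 20278 ± 7.45 in Wt1_flfl and 21250 ± 181 in Wt1_CKO (SD, n = 2 each), which is 4.79% higher. Hnrnpa1, Hnrnpa2b1 and Hnrnph1 held 54.0% of that difference of 972 CPM. Without these 3 the sum was 15272 and 15236 CPM in Wt1_flfl against 15587 and 15816 in Wt1_CKO. By family the sum differed by 7.22% for Srsf, 4.71% for Hnrnp and 2.49% for Rbm genes. The Rbm sums overlapped, with 3107 and 3160 CPM in Wt1_flfl and 3281 and 3143 in Wt1_CKO. The summed progenitor markers, 2567 and 2805 CPM in Wt1_flfl and 2557 and 2952 in Wt1_CKO, overlapped. Among the 8 lists of cell type markers, the sums of the thalamic and habenular genes (162 and 118 CPM against 76.6 and 85.1) and of the endothelial genes (120 and 131 against 113 and 117) did not overlap. Their part in the difference of the splicing factors was not tested.

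**Figure D2:**
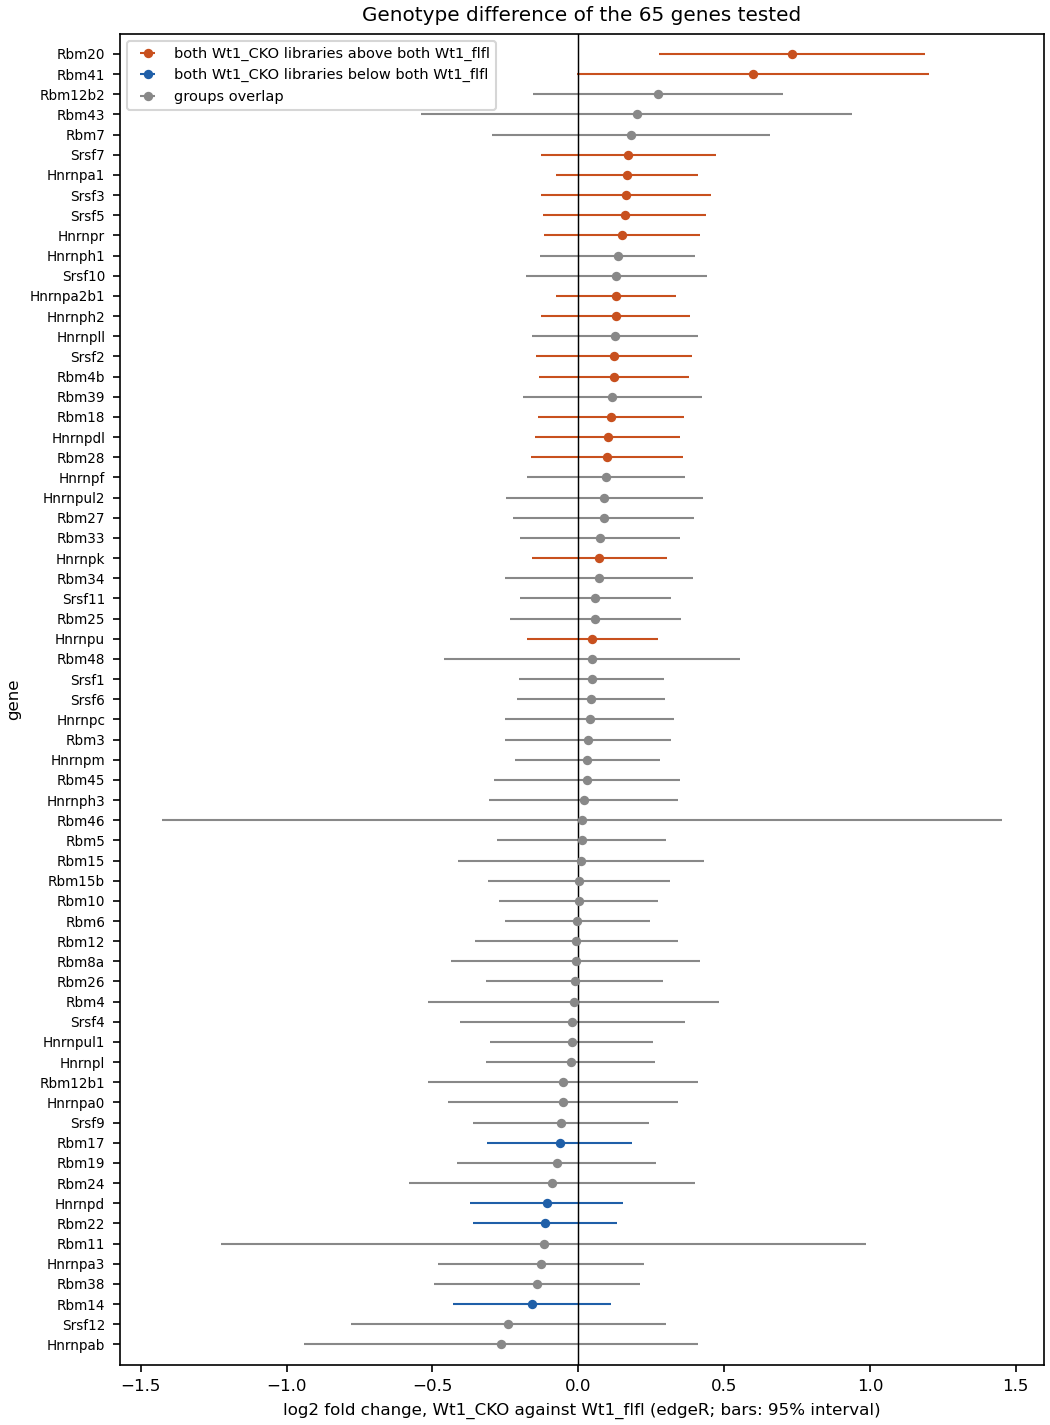
The log2 fold change of Wt1_CKO against Wt1_flfl for the 65 genes tested, with the 95% interval of edgeR's test as bars and colours for genes whose groups do not overlap. All values but 2 lie between -0.27 and 0.27, and the interval of Rbm20 is the only interval clear of 0.

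The SR proteins showed small differences. Srsf7, an adaptor for mRNA export and a splicing enhancer, had 358 and 301 CPM in replicates 1 and 2 of Wt1_flfl, and 378 and 364 CPM in those of Wt1_CKO, the order used for each pair of values below. The log2 fold change of 0.17 had an SE of 0.125 and a 95% interval from -0.13 to 0.47, and was 0.054 without Wt1_flfl replicate 2 and 0.30 without Wt1_flfl replicate 1. Both Wt1_CKO libraries were above both controls, but the controls differed from each other more than the groups did. Srsf3, the smallest SR protein, which links splicing to export and 3′ end choice, gave the same order. It had 636 and 541 CPM in Wt1_flfl and 676 and 641 in Wt1_CKO, with a log2 fold change of 0.16 (SE 0.122), or 0.051 without Wt1_flfl replicate 2. For Srsf5 the values were 443 and 417 CPM in Wt1_flfl and 507 and 452 in Wt1_CKO, with a log2 fold change of 0.16 (SE 0.116), or 0.072 without Wt1_CKO replicate 1. Srsf2, a nuclear speckle protein, had 187 and 185 CPM in Wt1_flfl and 191 and 213 in Wt1_CKO, and its log2 fold change of 0.12 was 0.043 without Wt1_CKO replicate 2. In these 4 of the 11 Srsf genes both Wt1_CKO libraries lay above both controls, against 13.4% of all genes tested, and no test was passed. Srsf1, the founding member of the family, stayed within a narrow band, with 707 and 667 CPM in Wt1_flfl and 698 and 719 in Wt1_CKO. Its log2 fold change of 0.05 had a 95% interval of -0.20 to 0.29. Srsf6 had 549 and 514 CPM against 546 and 550, and Srsf11 had 298 and 287 CPM against 314 and 295, each with Wt1_flfl first. Srsf12, an SR protein of low level that counters other SR proteins, had 16.3 and 13.5 CPM in Wt1_flfl and 14.6 and 10.6 in Wt1_CKO. Srsf4 had 37.9 and 50.4 CPM against 42.4 and 44.6, so its 2 controls enclosed both Wt1_CKO values.

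Of the 20 Hnrnp genes, 7 lay higher and 1 lower in both Wt1_CKO libraries, and 12 overlapped. Over all genes tested 13.4% lay higher and 13.5% lower in this way. Hnrnpa2b1, which also binds RNA sorted into granules and neurites, had 2010 and 2054 CPM in Wt1_flfl and 2225 and 2219 in Wt1_CKO. That is a log2 fold change of 0.13 (SE 0.0865, 95% interval -0.08 to 0.34). The gap between the groups exceeded the difference within either group, yet the spread that the test shares across genes is larger, and edgeR's adjusted p was 1. Hnrnpa1 had 1645 and 1742 CPM against 1793 and 2009, with a log2 fold change of 0.17 (SE 0.102), or 0.083 when Wt1_CKO replicate 2 was left out. Hnrnpr, a partner of the SMN protein in motor axons, had 322 and 355 CPM against 371 and 380. Hnrnpu, a scaffold protein of nuclear RNA and chromatin, had 1208 and 1220 CPM against 1256 and 1255, with a log2 fold change of 0.05. Hnrnpk, which binds C-rich RNA, had 1236 and 1166 CPM against 1274 and 1252, a difference that also separated the groups. Hnrnph1, which binds G-rich runs, overlapped, with 1357 and 1240 CPM in Wt1_flfl and 1517 and 1334 in Wt1_CKO. The gene that lay lower was Hnrnpd, which encodes the AU-rich element binding protein AUF1, with 682 and 708 CPM against 611 and 678 and a log2 fold change of -0.11. Hnrnpl, which binds CA-rich RNA, overlapped, with 595 and 616 CPM against 546 and 643. Hnrnpll had 167 and 150 CPM against 182 and 164, and Hnrnpul1 had 301 and 331 against 296 and 326.

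Hnrnpab varied most of the abundant hnRNP genes, and its genotype groups overlapped. This gene, whose protein binds RNA transported in neurons, had 269 and 486 CPM in Wt1_flfl against 266 and 362 in Wt1_CKO. Both replicate 2 libraries were above both replicate 1 libraries. The log2 fold change was -0.27 (95% interval -0.94 to 0.41), and 0.23 when Wt1_flfl replicate 2 was left out. Its exons share 29.1% of their bases with Phykpl on the other strand, and Phykpl itself had 440 and 612 counts against 524 and 634. Hnrnpa0 followed the replicate number too, with 656 and 737 CPM in Wt1_flfl and 568 and 774 in Wt1_CKO. Across the 65 genes, the difference of replicate 2 from replicate 1 had the same sign in both genotypes for 45 (69.2%), against 64.7% of all genes.

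Rbm20 had the largest difference between the genotypes. It encodes a splicing repressor known for the titin pre-mRNA of heart muscle, and lies on chromosome 19 from 53677306 on the plus strand of GRCm38. The Wt1_flfl libraries held 177 and 198 of its counts and the Wt1_CKO libraries 371 and 288. Scaled, that was 11.0 and 11.6 CPM in Wt1_flfl and 20.9 and 16.7 CPM in Wt1_CKO. The groups did not overlap. Its log2 fold change of 0.73 (SE 0.191, 95% interval 0.28 to 1.19) did not pass, with an adjusted p of 1 in edgeR's test. Over the alternatives edgeR's adjusted p ran from 0.101, with the replicate number as a block, to 1.

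Rbm41, a protein of the minor spliceosome, had 7.85 and 8.06 CPM in Wt1_flfl and 14.4 and 9.64 in Wt1_CKO. That is a log2 fold change of 0.60 (SE 0.252), or 0.28 when Wt1_CKO replicate 1 was left out. Rbm41 is 1 of 4 of these genes on the X chromosome, and Wt1_CKO replicate 1 is the library with 4 counts of Xist. The others on X, Hnrnph2, Rbm3 and Rbm10, had 207, 286 and 180 CPM in that library and 181 to 194, 254 to 293 and 172 to 194 CPM in the remaining 3. Its highest value thus lay in that library, as did that of Hnrnph2, while Rbm3 and Rbm10 lay within the range of the rest. The part of that difference between libraries in the Rbm41 value was not tested.

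The remaining Rbm genes lay closer together. Rbm12b2 had 24.7 and 20.4 CPM in Wt1_flfl and 30.1 and 24.3 in Wt1_CKO, so the groups overlapped. Rbm14, a paraspeckle protein, was among the 4 genes lower in both Wt1_CKO libraries, with 71.0 and 78.3 CPM against 64.4 and 69.4 and a log2 fold change of -0.16 (SE 0.113). Rbm17 had 143 and 148 CPM against 138 and 141. Rbm15, which guides the m6A writer complex to RNA, had 21.5 and 21.7 CPM against 19.1 and 24.4, with the Wt1_CKO values on either side of the controls. Rbm39 had 439 and 400 CPM against 492 and 417, and Rbm3 had 254 and 293 against 286 and 273. Rbm11, described as a tissue-restricted splicing regulator, was counted 24 and 16 times in the controls and 17 and 22 times in Wt1_CKO, and its interval ran from -1.22 to 0.99. Rbm6, a relative of Rbm5 and Rbm10, was the steadiest gene, with 180 and 178 CPM against 181 and 176.

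The 2 deposited tables were also read side by side, each 1 library against 1 library with no replicate. The authors' deposited tables mark 0 of the 68 genes in either. In the authors' deposited tables every marked gene has a log2 ratio of at least 1 in size and an adjusted p under 0.05, and every gene past both is marked. The authors' deposited tables hold an adjusted p under 0.05 for 34 of the 68 in the first, against 23.3% of all its genes, and for 36 in the second, against 19.2%. That p compares 1 library with 1 library and not the genotypes. It also depends on how many counts a gene has, and these genes were abundant. At least 100 CPM was reached by 39 of the 65 tested, against 2539 of all 15933 genes tested. The part of this level in the 34 and 36 was not tested. Over all listed genes the authors' deposited tables mark 1.67% as higher and 1.53% as lower in Wt1_CKO in the first, and 1.27% and 1.93% in the second. In log2 CPM with a prior count of 2, the median difference of the 65 genes was 0.04 in the first table and 0.06 in the second, against 0.01 and 0.00 over all genes. The 2 tables had opposite signs for 26 of the 65, where over all genes 27.0% were positive and 25.9% negative in both tables. Among these, Rbm11 differed by -0.59 in the first and 0.41 in the second. Hnrnpa3 gave -0.37 and 0.13, Rbm12 -0.23 and 0.23, Rbm45 -0.16 and 0.23, and Rbm43 0.37 and -0.01. Rbm8a, of the exon junction complex, gave -0.21 and 0.15.

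**Figure D3:**
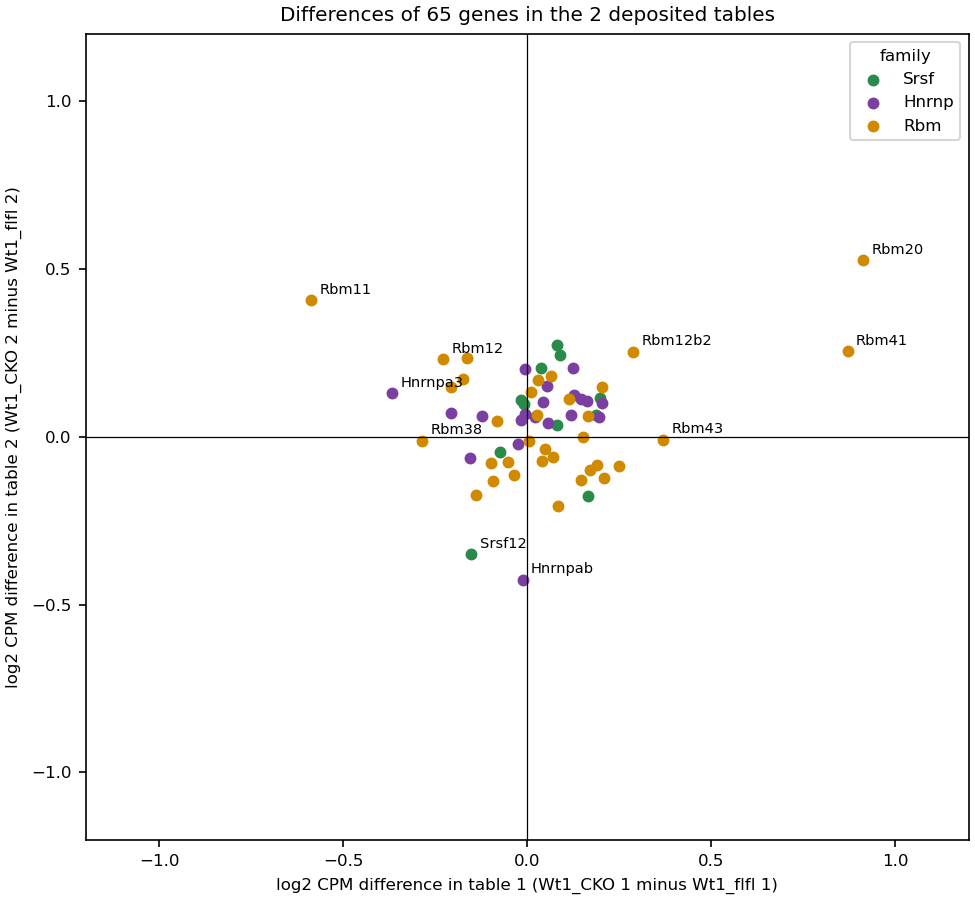
Differences of log2 CPM between Wt1_CKO and Wt1_flfl for the 65 genes, with the first deposited table on the x axis, the second on the y axis and colours by family. Rbm20 and Rbm41 lie far to the upper right at 0.91 and 0.87 on the x axis, while Rbm11 and Hnrnpa3 have opposite signs in the 2 tables.

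Pseudogene copies changed the reading of Hnrnpa3. A search of GENCODE pseudogene transcripts, at 90% identity or more over at least 50% of the copy, found 94 copies of 23 of the 68 genes, and 45 of these copies were listed in the tables. Hnrnpa3 had 36 copies, 17 of them listed, which held 41.5% of the summed counts of gene and copies. Alone, Hnrnpa3 had 232 and 181 CPM in Wt1_flfl and 179 and 198 in Wt1_CKO, with a log2 fold change of -0.13. With the copies added it had 343 and 316 CPM against 326 and 362, where the log2 fold change was 0.06 (95% interval -0.22 to 0.34). The sign of its value therefore depended on where these reads were counted, and neither value passed the test. Gm11847 alone took 902 and 1295 counts of the controls and 1302 and 1597 of Wt1_CKO, where Hnrnpa3 held 3718 and 3101 against 3191 and 3416. Copies held 9.70% of the sum for Rbm3, 9.52% for Hnrnpk and 6.57% for Hnrnpa1. Adding them left Hnrnpa1 at a log2 fold change of 0.17, Hnrnpk at 0.06 and Rbm3 at 0.03.

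**Figure D4:**
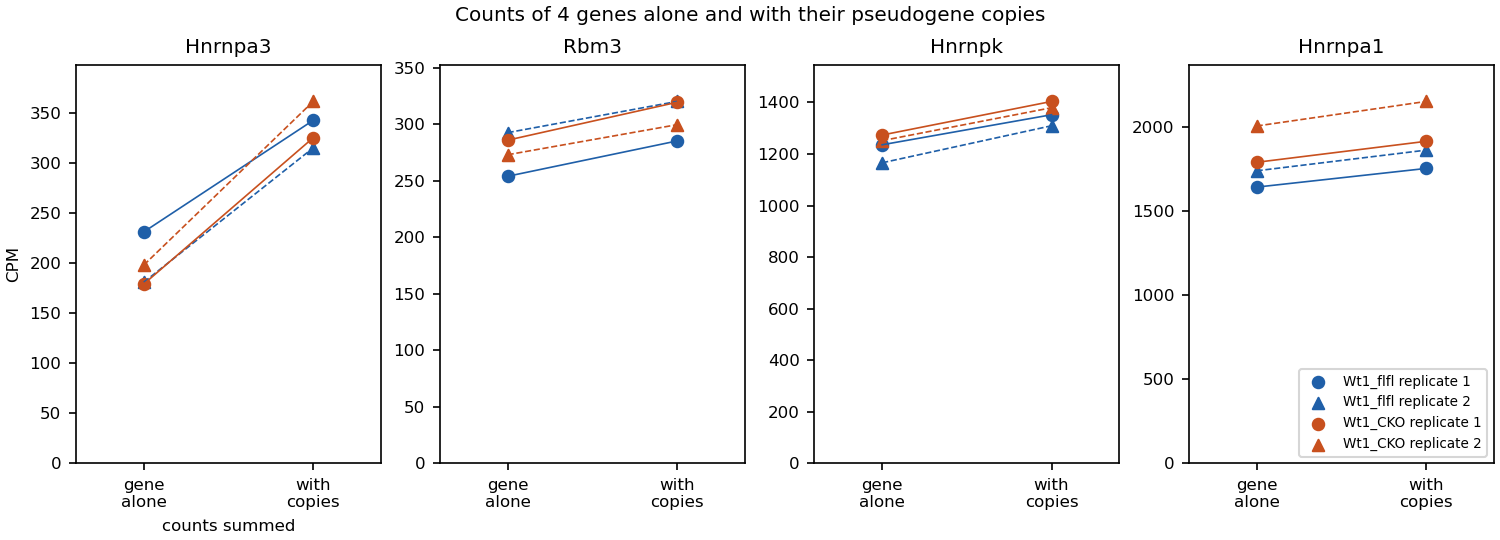
CPM of 4 genes in each library, counted alone and with their pseudogene copies added; blue is Wt1_flfl, orange Wt1_CKO, circles and solid lines replicate 1, triangles and dashed lines replicate 2, and the axes start at 0. In Hnrnpa3 the order of the libraries changes when the copies are added, while in Hnrnpa1 both Wt1_CKO libraries stay above both Wt1_flfl libraries.

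Overlapping gene models touched other members. Exon bases shared with another annotated gene were found for 31 of the 68 genes, and for 9 they made up over 20% of the exon length. Rbm42 shares 75.4% of its exon bases with Gm21982 on the same strand, and it is the gene with 1 or 2 counts per library. Rbm4, a splicing regulator that has been tied to Wt1, shares 60.5% with Gm21992, a transcript annotated across the Rbm4 and Rbm14 genes. Its level was 8.34 and 8.65 CPM in Wt1_flfl and 7.87 and 8.94 in Wt1_CKO, and Gm21992 held 67 to 78 counts per library. The neighbouring gene Rbm4b had 71.1 and 65.4 CPM against 74.3 and 74.2. Rbm12 shares 38.7% with Gm28036 and Cpne1, and Cpne1 had 1 to 7 counts per library. A read in a shared stretch belongs to more than 1 gene model, so the levels of Rbm4, Rbm12, Rbm14 and Rbm42 are uncertain. On the other strand Mettl23 and Mfsd11, which overlap Srsf2, had 430 to 505 and 412 to 440 counts per library. Strand is not given, so the other-strand shares of Srsf4 (43.0%), Rbm4b (30.8%), Hnrnpab (29.1%), Hnrnpf (26.5%) and Srsf2 (25.3%) may carry the same limit. These shares are the same in every library.

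Because Wt1 binds DNA, the RefSeq promoter windows of the members were searched for GCGTGGGNG, letters of the kind that the zinc fingers of Wt1 and Egr1 prefer, on both strands of the 250 bases before each annotated start. Windows were found for 58 of the 68 genes, 75 windows in all, and 3 of them (4%) held the motif, against 1.65% of all 32851 windows. The 3 stretches are printed from GRCm38.p6 on the strand of the gene, with the match, which lies on the other strand in each, in capitals.
Rbm43, chr2:51934787-51934855, minus strand: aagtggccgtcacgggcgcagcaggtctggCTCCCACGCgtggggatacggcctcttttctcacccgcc
Hnrnpf, chr6:117907751-117907803, plus strand: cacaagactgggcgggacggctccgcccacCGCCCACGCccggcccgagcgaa
Rbm10, chrX:20617405-20617473, plus strand: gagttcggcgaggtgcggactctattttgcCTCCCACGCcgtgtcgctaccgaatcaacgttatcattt
By the GENCODE positions Rbm43 begins at base 51935163 on the minus strand and Hnrnpf at 117900324 on the plus strand. Their stretches therefore lie inside the gene, before a RefSeq start further in. Only the Rbm10 stretch lies ahead of the GENCODE start of its gene, at 20617503. None of these 3 genes passed edgeR's test. Hnrnpf had 290 and 261 CPM in Wt1_flfl and 289 and 300 in Wt1_CKO, and Rbm10 had 172 and 194 against 180 and 185. Rbm43 had 2.80 and 2.81 CPM against 3.65 and 2.79, from 45 to 65 counts per library. A match of letters is a description and not a binding site.

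Related genes of RNA processing were compared by lists, and none of their members passed edgeR's test either. Each count below is of genes whose groups did not overlap, and over all genes tested 13.4% lay above and 13.5% below in this way. The SR protein kinases, which phosphorylate the arginine and serine tail, had 8 of 9 genes tested, 1 with both Wt1_CKO libraries above the controls (12.5%) and 0 below, and a median log2 fold change of 0.05. Srpk1, a kinase whose gene is known as a Wt1 target in kidney cells, had 151 and 161 CPM in Wt1_flfl and 155 and 161 in Wt1_CKO. Its log2 fold change of 0.02 had a 95% interval of -0.24 to 0.27. Prpf4b had 171 and 165 CPM against 206 and 174, and Clk3 had 72.5 and 91.8 against 81.8 and 101. The SR-related proteins had 4 of 16 above (25%, against 13.4% of all genes), 2 below (12.5%, against 13.5%) and a median of 0.05. Srrm3, which promotes neuronal microexons, had 50.5 and 68.2 CPM against 49.0 and 53.3, and Rnps1 had 229 and 247 against 210 and 223.

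Other proteins of the hnRNP class, whose symbols the rule does not cover, had 2 of 16 above (12.5%, against 13.4% of all genes) and 4 below (25%, against 13.5%), with a median of -0.03. Ybx1, a cold shock domain protein, had 1253 and 1373 CPM in Wt1_flfl and 1073 and 1088 in Wt1_CKO; its log2 fold change of -0.28 came with edgeR's unadjusted p of 0.0284. Tardbp, the gene of the TDP-43 protein, lay in the other direction, with 414 and 406 CPM against 502 and 481, a log2 fold change of 0.26 and edgeR's unadjusted p of 0.0441. The adjusted p of both was 1 in edgeR's test.

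The neural splicing regulators had 2 of 27 above (7.41%, against 13.4% of all genes) and 6 below (22.2%, against 13.5%), with a median of 0.00. Celf6 had 21.4 and 31.2 CPM in Wt1_flfl and 18.4 and 19.0 in Wt1_CKO, and Celf3 had 487 and 631 against 428 and 485. The postmitotic neuron markers summed to 6018 and 5291 CPM in Wt1_flfl and 5845 and 4955 in Wt1_CKO, with 1 of 8 below in both Wt1_CKO libraries (12.5%, against 13.5% of all genes) and 0 above. Their part in the values of the neural regulators was not tested.

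The core spliceosome had 6 of 36 above (16.7%) and 5 below (13.9%), both near the 13.4% and 13.5% of all genes, with a median of 0.00. Snrpa, of the U1 particle, had 214 and 195 CPM against 173 and 174, and Sf3a2, of the U2 particle, had 144 and 147 against 132 and 124. Nonsense-mediated decay factors had 0 of 14 above and 1 below (7.14%, against 13.5% of all genes), with a median of 0.03. Smg1, the kinase of that pathway, had 108 and 122 CPM against 134 and 122, and Smg9 had 36.2 and 39.4 against 34.0 and 34.5. The m6A writer complex had 3 of 6 above (50%, against 13.4% of all genes) and 0 below. Wtap, named for its association with Wt1, had 104 and 110 CPM in Wt1_flfl and 115 and 114 in Wt1_CKO, a log2 fold change of 0.09 (95% interval -0.16 to 0.34). Virma had 76.4 and 85.8 CPM against 87.0 and 90.9.

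Signs of RNA state and of handling were looked at beside these values. Nuclear-retained RNAs had 1 of 8 above (12.5%, against 13.4% of all genes) and 0 below, with a median of -0.18, and both replicate 2 libraries held the higher sums: 2253 and 3562 CPM in Wt1_flfl and 2406 and 3017 in Wt1_CKO. Rian had 383 and 619 CPM against 360 and 452. Neat1 had 1.74 and 3.45 against 3.93 and 3.95, from 28 to 70 counts per library. Heat shock and cold response genes had 1 of 8 above and 1 below (12.5% each, against 13.4% and 13.5% of all genes), with a median of 0.03. Hspd1 had 330 and 334 CPM against 359 and 359. Hspa1b had 1.74 and 1.58 against 1.07 and 0.871, from 15 to 28 counts per library. Among markers of other cells, the summed erythroid genes were 973 and 1861 CPM in Wt1_flfl and 915 and 1807 in Wt1_CKO, and the choroid plexus genes 23.0 and 48.4 against 60.2 and 26.6. Meningeal genes summed to 33.8 and 65.1 CPM against 33.8 and 32.8, endothelial genes to 120 and 131 against 113 and 117, and microglial genes to 35.4 and 30.8 against 35.5 and 29.3. Of these sums only the endothelial sums did not overlap. Of the thalamic and habenular genes, whose sums are given above, 4 of 7 lay below in both Wt1_CKO libraries (57.1%, against 13.5% of all genes) and 0 above. The part of these markers in the values of the RNA processing genes was not tested.

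**Figure D5:**
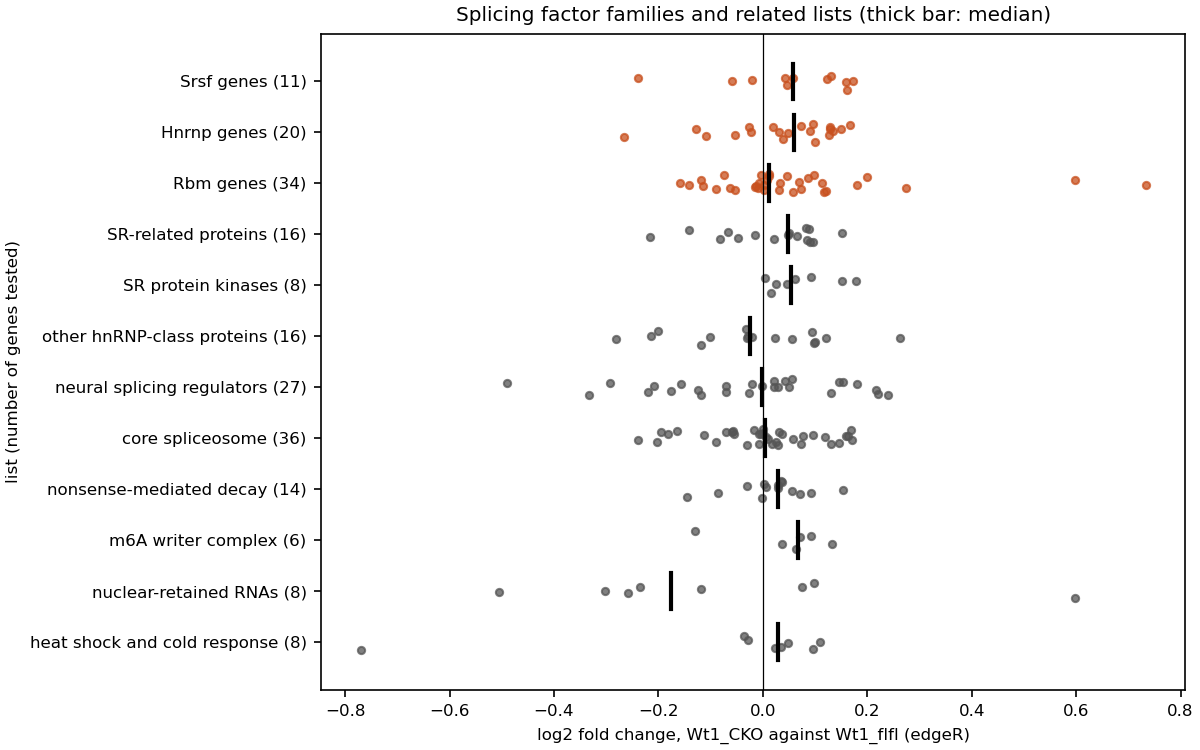
The log2 fold change of Wt1_CKO against Wt1_flfl for each gene tested of the 3 splicing factor families (orange) and 9 related lists (grey), with a thick bar at the median. The medians of the 3 families lie between 0.01 and 0.06, and Rbm20 and Rbm41 stand to the right of the other Rbm genes.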

How the data were processed

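Poly(A) RNA of 4 mouse brain samples was sequenced, per the labels' protocols, after priming with random hexamers; strand is not given in the sources used here. HTSeq 0.6.0, TopHat2 2.0.12 and Bowtie2 2.2.3 are named in the submitters' processing notes, with mm9 as build. The deposited positions equalled those of GENCODE M21 on GRCm38 for 17806 of 19500 genes and for 62 of the 68 members, so GRCm38 is named. Per the file headers the authors deposited whole-number counts per gene. They also deposited CPM values, a fold ratio, its log2 value and p-values of 1 library against 1 library; the sources used here do not name the test.

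The 19500 genes shared by the tables entered edgeR 4.0.16 in R 4.3.3: filterByExpr with a minimum count of 10, TMM, a quasi-likelihood F test with genotype as its only term, and Benjamini-Hochberg adjustment over all genes at 0.05. The SE of a log2 fold change is its size over the root of F, and the 95% interval uses the test's degrees of freedom. The fit was also run on simulated counts with means and dispersions taken from these data, and the outcome is not reported here. The common biological coefficient of variation was 0.171. DESeq2 1.42.0 and limma 3.58.1 (voom) were alternatives, beside the replicate number as a block, each library left out, other scalings and filters. Leaving out rRNA genes, adding pseudogene copies (found with megablast) and other transcript lengths were added after the data were seen.

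The members and the 17 gene lists were chosen with earlier results of these data known. Named members were those with the 10 smallest p, the 3 highest and 3 lowest per family by level, up to 6 with the largest opposite differences in the tables and 12 of known role, and of each related list the 2 genes with the smallest p, beside Srpk1 and Wtap. Every other gene with values, among them Hnrnpab, Hnrnpf, Hnrnpk, Hnrnph1, Hnrnph2, Rbm4b, Rbm6, Rbm10 and the pseudogenes, was chosen after its values were seen. Protein features planned for these genes were not analysed here. Of the targeted gene nothing is reported here.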

Additional observations from a re-analysis of the deposited data

How the results depend on the processing

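The count of members called stayed at 0 under each of the 12 alternatives run. The median log2 fold change of the members was 0.043 with all libraries and 0.047 to 0.061 without 1 library, the highest without Wt1_flfl replicate 1. With no TMM factor the median of the first table was 0.065. Leaving out 1 library compares 2 with 1, where more genes separate by construction: 23 to 33 members were then above and 11 to 15 below, against 29.8% to 34.2% and 29.9% to 33.1% of all genes. The labels do not say that equal numbers pair the samples. The deviations of replicate 2 from replicate 1 in the 2 genotypes had a correlation of 0.28 across genes. With the replicate number as a block, 42 genes were called over all genes and 0 members, with a median log2 fold change of 0.04, and Rbm20 had a log2 fold change of 0.73 and edgeR's adjusted p of 0.101. Among 55 named genes, 621 of 657 values kept their direction and their side of the threshold. The log2 fold change changed sign for Hnrnpa3 with its copies added (0.062), for Rbm12 (0.0021) and Rbm15 (-0.0041) by limma-voom, and for Rbm10 with no filter on low counts (-0.00064). For 20 genes it did so without 1 library, which left 2 samples against 1: it ran from -0.29 to 0.15 for Hnrnpa0, -0.095 to 0.047 for Hnrnpul1, -0.0080 to 0.23 for Rbm39, -0.065 to 0.14 for Rbm3, -0.0026 to 0.092 for Srsf6, -0.21 to 0.20 for Srsf4, -0.42 to 0.25 for Rbm11, -0.29 to 0.061 for Hnrnpa3, -0.16 to 0.16 for Rbm12, -0.094 to 0.17 for Rbm45, -0.0088 to 0.38 for Rbm43, -0.29 to 0.22 for Rbm8a, -0.11 to 0.073 for Rbm4, -0.18 to 0.18 for Rbm15, -0.63 to 0.23 for Hnrnpab, -0.082 to 0.091 for Rbm10, -0.028 to 0.062 for Srpk1, -0.0069 to 0.33 for Clk3, -0.41 to 0.018 for Srrm3 and -0.61 to 0.085 for Rian. Other values kept their sign but not their size, and those of Srsf2, Srsf3, Srsf5, Srsf7, Hnrnpa1 and Rbm41 are given beside the result. The cause was not tested. Counts under about 30 per library, as for Rbm11, Rbm46 and Hspa1b, limit what could be detected.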
